A study of Mus musculus with 4 samples.

Results

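Oxidative phosphorylation is carried out in the mitochondrial inner membrane by 5 protein complexes, and the genes of the nucleus that encode their subunits were examined on 4 arrays of mouse mammary tumour cells. Members were chosen by name alone, as the non-control probes whose gene name began with Nduf and a subunit letter and digit, Sdha to Sdhd, Uqcr, Cox4 to Cox8, or Atp5. The pattern found 83 genes on 112 of the 39429 probes, among 31829 gene names in all. By complex these were 37 genes of complex I, 4 of complex II, 7 of complex III, 19 of complex IV and 16 of complex V. For a gene with several probes the brightest probe, by its mean over the arrays, stood for the gene.

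The cells were grown from breast tumours of mice with the MMTV-Neu transgene, that is, the Neu (Her2, Erbb2) oncogene under the promoter of the mouse mammary tumour virus, which is active in mammary epithelium. There were 2 samples labelled Pak1-/- and 2 labelled Pak1+/+, that is, without and with the gene of the p21-activated kinase Pak1. The methods call the cells cell lines named Neu:PAK1+/+ and Neu:PAK1-/-, while the series design speaks of cells from separate tumours in each group, so the 2 samples of a group were taken as its replicates. All cells had been grown in low-calcium medium with horse serum, deprived of serum for 3 h and given EGF for 15 min. Nothing else says how far the replicates were separate cultures, so the p-values measure only the spread between these samples.

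Complexes I to IV pass electrons from NADH and succinate to oxygen, with ubiquinone and cytochrome c as the mobile carriers between them, and complexes I, III and IV pump protons as they do so. Complex V, the ATP synthase, uses the returning protons to make ATP. All complexes but II also hold subunits encoded in mitochondrial DNA, and several subunits of complex IV exist as isoforms restricted to muscle, lung or testis. In mammary epithelium, as in most epithelia, the ubiquitous isoforms are the usual ones.

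Epithelial markers were bright in both groups: 9 of 10 were well above background on all 4 arrays, Krt8, Krt18, Cldn3, Cldn7, Krt7 and Epcam among them, and Krt19 was so on 3. Of the 10, Cdh1, Krt8 and Krt18 were higher in the Pak1-/- labelled arrays and Krt7 and Erbb2 lower, and their summed intensity was 1.26e+06 to 1.28e+06 there and 1.16e+06 to 1.18e+06 in the others. The part of this in the differences of the members was not tested. The probe for Pak1, checked first, did not separate the groups in the direction of the labels. Its log2 intensities were 12.21 and 12.25 in the Pak1-/- labelled arrays, compared with 12.04 and 12.04 in the Pak1+/+ labelled arrays, a difference of 0.19 ± 0.068 (SE, limma adjusted p = 0.0700). Which part of the gene was deleted is not given in the sources used here, so a probe outside it would check nothing, and the groups are called by their labels below. The probe for Erbb2 read 11.91 and 11.95 against 12.26 and 12.21, a difference of -0.31 ± 0.069 (limma adjusted p = 0.0202), a call that was lost without either array labelled Pak1+/+ or the first labelled Pak1-/-. Whether it also reads the transgene is not given in the sources used here. All 4 arrays shared 1 slide and 1 scan. Because positions 1 and 2 held the Pak1-/- labelled arrays and positions 3 and 4 the others, a position effect and a genotype effect cannot be told apart.

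Levels below are log2 intensities after background correction and quantile normalization. A difference is the mean of the arrays labelled Pak1-/- minus that of the arrays labelled Pak1+/+, with its SE from limma and n = 2 arrays a group throughout. A gene was called higher or lower when the limma p of its brightest probe, adjusted over all 27229 probes tested, was under 0.05. Levels of different probes are not compared, since each probe binds its target with its own strength. Probe positions are those of the files, on mm9, and whether they lie in coding or untranslated sequence was not assigned here.

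Regulatory sequence in front of the members is shown first, because the nuclear respiratory factors are the textbook regulators of these genes. The windows were RefSeq promoters of the GRCm38.p6 assembly, from 250 bases before to 50 after each start, and 67 of the 83 members had one. NRF1 was searched as GCGCATGC, ETS factors such as GABPA as CCGGAAG, YY1 as AAGATGGC and the oestrogen-related receptors as CAAGGTCA, each on both strands. The NRF1 letters stood in 10 member promoters (14.9%, against 3.05% of all 27025 genes with a window), those of ETS factors in 16 (23.9% against 9.93%), those of YY1 in 11 (16.4% against 3.19%) and those of the oestrogen-related receptors in 4 (5.97% against 1.76%). The letters AAG end the ETS motif and begin the YY1 motif, so that these 2 can overlap. The NRF1 and YY1 letters were shortened after matches of longer forms had been seen, which raised their counts. Member windows were also richer in CG pairs, with a median of 14 beside 6 in all windows, over 250 bases. The NRF1 and ETS letters contain CG, so all genes are an unlike baseline for them. Below are the stretches around the NRF1 match of the 4 members that had both a match and a call, 5′ to 3′ on the gene's strand and cut at the start site, with the match in capitals. Where matches on both strands overlap, the capitals span both.
Ndufa8, chr2:36049339-36049391, minus strand, higher in the Pak1-/- labelled arrays: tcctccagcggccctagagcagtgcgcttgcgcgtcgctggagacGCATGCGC
Ndufa11, chr17:56717657-56717756, plus strand, higher: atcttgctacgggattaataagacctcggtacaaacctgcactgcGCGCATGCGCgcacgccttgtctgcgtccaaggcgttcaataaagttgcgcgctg
Ndufa6, chr15:82354322-82354419, minus strand, lower: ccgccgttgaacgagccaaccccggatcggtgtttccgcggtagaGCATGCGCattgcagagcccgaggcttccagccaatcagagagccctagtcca
Atp5k, chr5:108434400-108434494, minus strand, lower: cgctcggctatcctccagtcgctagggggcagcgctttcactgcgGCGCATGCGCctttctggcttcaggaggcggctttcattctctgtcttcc

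The calls of these 4 genes were in both directions, and none was firm: Ndufa8, Ndufa11, Ndufa6 and Atp5k kept theirs in 8, 6, 7 and 7 of 15 other settings, and in 1, 0, 0 and 0 of the 4 fits without 1 array. Ndufa8 and Ndufa11, membrane-arm subunits of complex I, differed by 0.29 ± 0.083 and 0.24 ± 0.071. Ndufa6, a subunit of the peripheral arm, differed by -0.26 ± 0.073, and Atp5k, subunit e of ATP synthase, by -0.26 ± 0.069. The other 6 genes with the NRF1 letters had no call. Among the 13 members with a promoter that were higher, the ETS letters stood in 2, and among the 20 that were lower they stood in 4, while 10 of the 32 with no call held them. A match is a description of letters and says nothing of binding.

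Of the 83 members, 80 passed the filter on low values and were tested, 79 of them well above background on all 4 arrays. The other 3, Cox7b2, Cox8b and Cox8c, isoforms of testis or of muscle and brown fat, did not rise well above background anywhere. Of those tested, 13 were higher in the arrays labelled Pak1-/-, 24 were lower and 43 had no call. That is 46.25% called, while 51% of the 21967 genes tested were called, 22.8% higher and 28.2% lower. Among the 1461 genes as bright as the middle of the members (mean log2 intensity from 14.72 to 16.33), 58.5% were called, 24.5% higher and 34% lower. The members were thus called no more often than other genes.

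Most differences were small. The median difference was -0.15, beside -0.055 over all genes and -0.068 over the genes of like brightness, and the median size without regard to sign was 0.22, beside 0.32 and 0.34. At least 2-fold calls numbered 3 among the members, whereas 12.6% of all genes were called with such a change. Non-overlapping groups were found for 72 of the 80 members, or 90%, with 77.5% over all genes. Bulk RNA was measured, so fewer cells of a type and less RNA per cell cannot be told apart.

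How the 37 calls split by direction moved with the scaling of the arrays. Scaling to the 75th percentile in place of quantile normalization gave 5 higher and 38 lower, the same scaling of the processed signal gave 4 and 35, and cyclic loess gave 18 and 18. The median of the genes of like brightness moved with it, to -0.15, -0.17 and 0.042, while the members' median went to -0.25, -0.28 and -0.071. Single arrays mattered too: the counts were 6 higher and 15 lower without the first array labelled Pak1+/+, 7 and 14 without the second, 7 and 21 without the second labelled Pak1-/-, and 9 and 16 without the first. The share of all genes called fell as well, from 51% to 37.5%, 37.8%, 44.1% and 40.3% in the same order. Read from the low-gain scan because of their brightness were 62 to 65 members on each array, and none was saturated.

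**Figure D1:**
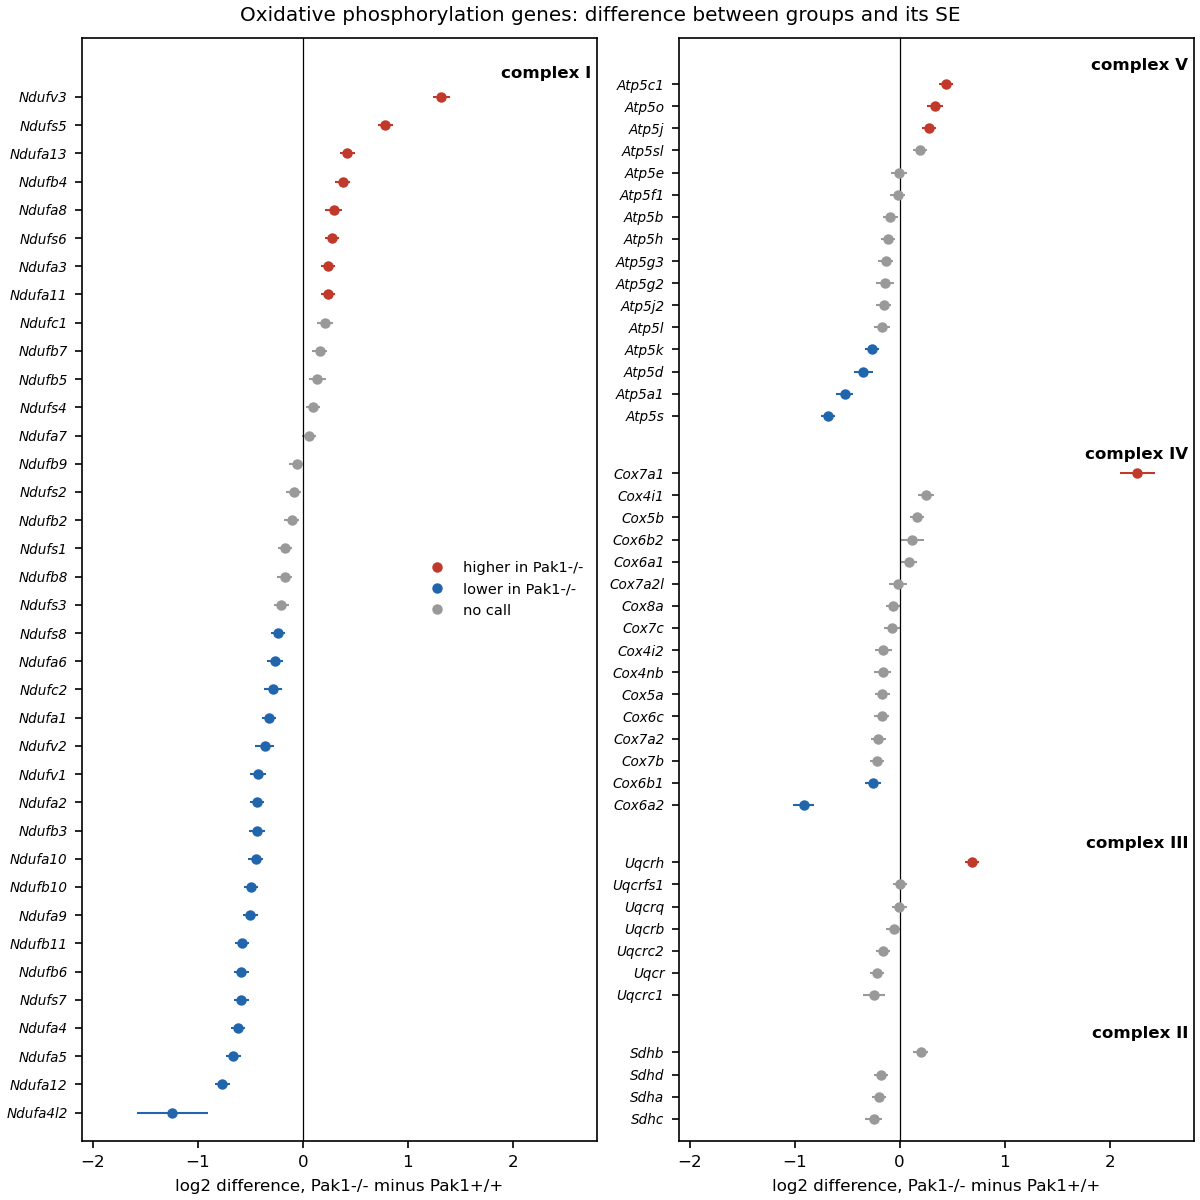
Difference in log2 intensity (Pak1-/- minus Pak1+/+ by the labels, x axis) for the 80 members tested, by complex, with bars of 1 SE and colour for the call. Complex I holds 26 of the 37 calls, with 18 lower and 8 higher, and complex II holds none. The median differences of both complexes were near each other, at -0.21 and -0.19. In complex II the limma adjusted p ran from 0.0525 to 0.0859.

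A firmer set stood under every other setting that kept the threshold. Of the 37 called members, 18 kept their call and direction under 15 alternatives of scaling, background, filter, probe choice, replicate block and left-out array, and these were 4 higher and 14 lower. The higher were Cox7a1, Ndufv3, Ndufs5 and Uqcrh, with Ndufv3 resting on its brighter probe, since the dimmer showed no difference. All alternatives reused the same arrays, and the share of all called genes that would hold under them was not counted. Complex I supplied 11 of the lower, by the naming that counts Ndufa4 to it, and the others were Cox6a2, Atp5a1 and Atp5s. Of these, Cox6a2 read near the floor of the arrays, at 7.50 to 8.54. The 15 called members with a difference under 0.4 in size all lost their call in at least 1 setting, as did 4 of greater size, Ndufa4l2, Atp5c1, Ndufv1 and Ndufa13.

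**Figure D2:**
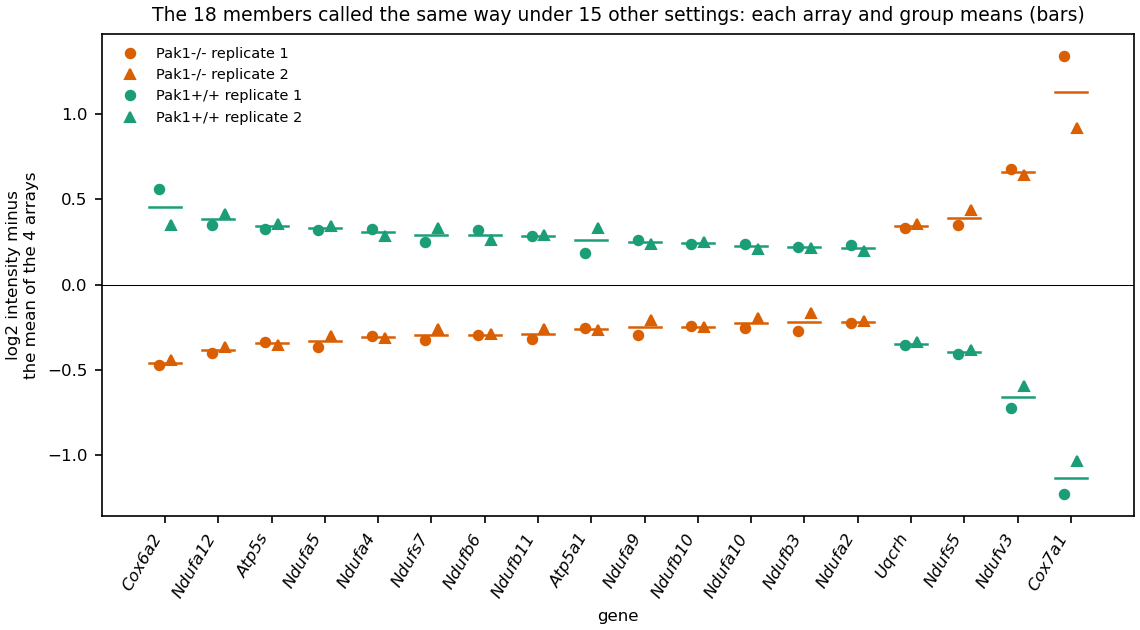
Log2 intensity of each array minus the mean of the 4 arrays (y axis) for the 18 members called in the same direction under 15 other settings, with group means as bars. Both arrays of a group sit on the same side of the other group for each of these genes, and Cox7a1 spreads most between replicates.

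Complex I takes electrons from NADH and is built of a peripheral arm in the matrix, where NADH is oxidised and ubiquinone reduced, and a membrane arm that pumps protons. Of its 37 genes 8 were higher, 18 lower and 11 had no call, which is 70.3% called, and the median difference was -0.21, with -0.30 to -0.13 across the scalings. All genes had 51% called, and those of like brightness 58.5%. The groups overlapped for none of the 37, beside the 77.5% of all genes without overlap. Across the scalings 20 to 26 of them were called, beside 48.3% to 51.0% of all genes. Without any 1 array fewer of them were called, and fewer of all genes too. The median difference of complex I then ran from -0.24 to -0.19.

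The 7 core subunits of the nucleus, those that carry the flavin and the iron-sulphur clusters, all had a negative difference, and 4 of them were lower, beside 28.2% of all genes and 34% of those of like brightness. None was higher, and at an unadjusted limma p under 0.05 the counts were 0 higher and 5 lower. Ndufs7, which holds the last iron-sulphur cluster before ubiquinone, gave 14.83 and 14.89 in the Pak1-/- labelled arrays, compared with 15.40 and 15.48 in the Pak1+/+ labelled arrays, a difference of -0.58 ± 0.074 (limma adjusted p = 0.00353). Ndufv1, the subunit that binds NADH and the flavin, read 15.42 and 15.51 against 15.87 and 15.92, or -0.43 ± 0.075 (limma adjusted p = 0.00928). Both groups of these genes lay apart by more than the replicates of either. Ndufv2 and Ndufs8, which carry further clusters, differed by -0.36 ± 0.088 and -0.23 ± 0.067, and those calls were lost in 4 and 9 of the 15 other settings.

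Of the 28 accessory (supernumerary) subunits 8 were higher and 12 lower, beside 22.8% and 28.2% of all genes and 24.5% and 34% of those of like brightness. With core and accessory subunits together, the 16 genes of the peripheral arm had a median of -0.25, with 9 lower and 2 higher. The 19 genes of the membrane arm had a median of -0.059, with 7 lower and 6 higher. Membership of the arms was written down after the values were seen, and no difference between the arms was tested.

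Ndufa12, an accessory subunit of the peripheral arm, had the largest fall of the complex among genes above background on every array. It read 15.52 and 15.56 in the Pak1-/- labelled arrays, compared with 16.27 and 16.34 in the Pak1+/+ labelled arrays, a difference of -0.77 ± 0.070 (limma adjusted p = 0.00146). Ndufa5, which sits near the ubiquinone site, read 14.59 and 14.66 against 15.27 and 15.30, or -0.66 ± 0.070, and its second probe gave -0.60 ± 0.083. On both genes the arrays of a group lay close together and far from the other group. Others that fell under every setting, chosen for naming after their values were seen, were Ndufb6 (-0.58), Ndufb11 (-0.58), Ndufb10 (-0.49), Ndufb3 (-0.44) and Ndufa10 (-0.45) of the membrane arm, and Ndufa9 (-0.50) and Ndufa2 (-0.44) of the peripheral arm. All 3 probes of Ndufb11 were lower, as were both of Ndufb6.

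Ndufs5 and Ndufv3 went the other way. Ndufs5, an accessory subunit on the intermembrane-space side of the membrane arm, read 15.74 and 15.83 in the Pak1-/- labelled arrays, compared with 14.98 and 15.01 in the Pak1+/+ labelled arrays, a difference of 0.79 ± 0.072 (limma adjusted p = 0.00149). The accessions of its probe also include the pseudogene Ndufs5-ps, so the signals of the 2 cannot be separated and the value is uncertain. Ndufb4 differed by 0.38 ± 0.072 on a brightest probe that also lists Ndufb4b, and by 0.33 ± 0.068 (limma adjusted p = 0.0152) on a second probe, overlapping the first, whose accessions list Ndufb4 alone. Ndufa13, Ndufa8, Ndufs6, Ndufa3 and Ndufa11 made up the other higher calls, at 0.42, 0.29, 0.28, 0.24 and 0.24, and they kept their calls in 13, 8, 8, 6 and 6 of the 15 other settings.

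Ndufv3, an accessory subunit of the module that oxidises NADH, rose most in complex I, but by 1 of its 2 probes. The brighter probe, at chr17:31668209-31668268 on mm9, read 15.70 and 15.67 against 14.30 and 14.43, a difference of 1.32 ± 0.079 or 2.50-fold (limma adjusted p = 0.000514). The dimmer probe, at chr17:31665148-31665207 and 3061 bases before it, read 11.33 and 11.42 against 11.32 and 11.41, a difference of 0.0068 ± 0.078 (limma adjusted p = 0.950). Arrays of the 2 labels were thus well apart on the brighter probe and interleaved on the dimmer. By the accessions in the files the brighter probe matches both RefSeq transcripts of the gene, NM_030087 and NM_001083891, and the dimmer matches NM_030087 alone. The sequence of the dimmer probe is given because it lies in the transcript that its accessions name alone. Whether the probes differ through their transcripts or through the probes themselves was not tested.
Ndufv3, dimmer probe, 5′ to 3′: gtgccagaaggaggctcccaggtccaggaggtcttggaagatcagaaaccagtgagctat
These letters read without a stop codon in 2 of the 3 forward frames. No probe was specific to the other transcript, so its level alone was not measured.

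Members with several probes numbered 22, and in 15 of them all probes had the same call. Ndufv3 was the only gene whose brightest probe alone passed. In 6 genes only dimmer probes passed, all of them lower: Ndufb5 (-0.34), Uqcrq (-0.32), Cox7a2l (-0.41), Atp5j2 (-0.44), Atp5g2 (-0.29) and Atp5l (-0.29 and -0.33 on 2 of 5 probes). In no gene did probes pass in opposite directions. Taking the mean over a gene's probes in place of the brightest gave 13 higher and 27 lower.

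**Figure D3:**
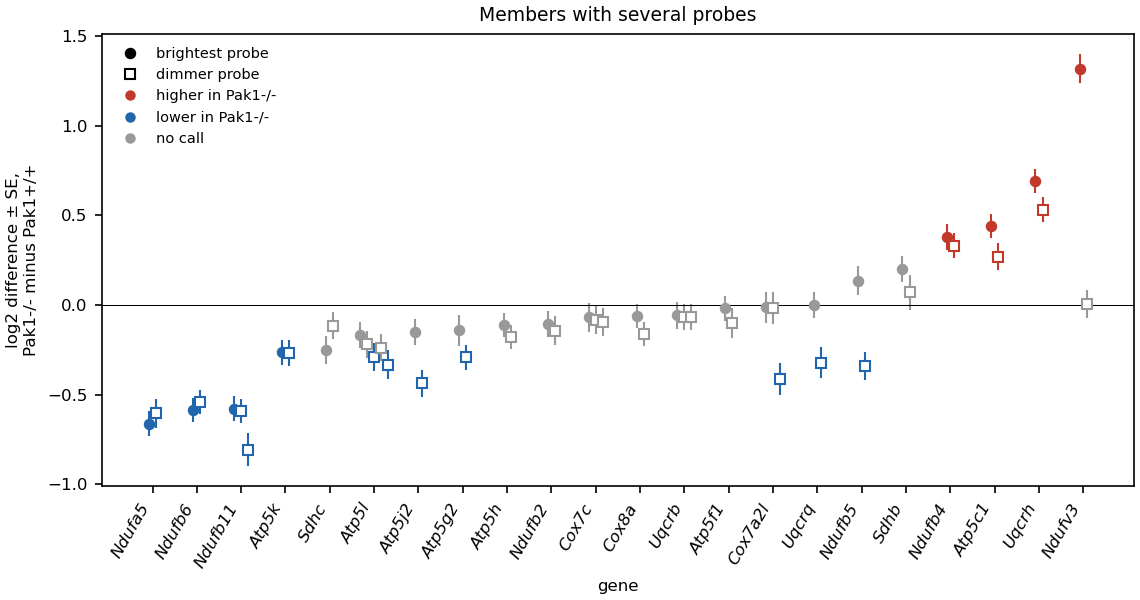
Log2 difference with 1 SE (y axis, Pak1-/- minus Pak1+/+ by the labels) of each probe of the 22 members with several probes. Probes of Uqcrb, Cox7c, Ndufb6 and Atp5k lie together, while those of Ndufv3 lie 1.31 apart and the dimmer probes of Ndufb5, Uqcrq and Cox7a2l fall below their brightest.

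Complex II is the succinate dehydrogenase of the citric acid cycle. None of its 4 genes was called by limma, with 1 positive and 2 negative at an unadjusted p under 0.05. Their median difference was -0.19, beside -0.21 in complex I. Sdha, the flavin subunit, read 14.52 and 14.55 against 14.73 and 14.73, a difference of -0.20 ± 0.067 (limma adjusted p = 0.0654). Sdhb, the iron-sulphur subunit, read 15.17 and 15.26 against 15.00 and 15.03, or 0.20 ± 0.073 (limma adjusted p = 0.0765). Sdhc and Sdhd, the membrane anchors, differed by -0.25 ± 0.078 (limma adjusted p = 0.0525) and -0.18 ± 0.067 (limma adjusted p = 0.0859). Groups did not overlap for any of the 4, as for 77.5% of all genes, and each adjusted p stayed above the threshold, and under other scalings 0 to 2 of them passed.

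Complex III passes electrons from ubiquinol to cytochrome c. Of its 7 genes in the name pattern 1 was higher, none was lower (1 at an unadjusted limma p under 0.05) and 6 had no call. Over all genes 51% were called and 28.2% were lower. The 6 genes without a call differed by -0.24 to 0.003, and the median of the 7 was -0.057. Uqcrh, the hinge protein that holds cytochrome c1 and cytochrome c together, read 16.65 and 16.68 in the Pak1-/- labelled arrays, compared with 15.96 and 15.98 in the Pak1+/+ labelled arrays. That is a difference of 0.69 ± 0.067, or 1.61-fold (limma adjusted p = 0.00171), and the second probe gave 0.53 ± 0.070 (limma adjusted p = 0.00393). Cyc1, the cytochrome c1 that Uqcrh binds, lies outside the name pattern and differed the other way, by -0.52 ± 0.074 (limma adjusted p = 0.00482), from 15.44 and 15.45 down to 14.87 and 14.97. Uqcr10, a further subunit outside the pattern, was lower on each of its probes, at -0.35 ± 0.094 on the brightest. Uqcrc1, Uqcrc2 and the Rieske protein gene Uqcrfs1 had no call.

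Complex IV, cytochrome c oxidase, reduces oxygen. Of its 16 genes tested 1 was higher, 2 were lower and 13 had no call, which is 18.75% called. Over all genes 51% were called. The median difference of complex IV was -0.11, beside -0.055 over all genes. Among the 10 ubiquitous subunits named Cox the only call was Cox6b1, at -0.26 ± 0.075 (limma adjusted p = 0.0424), and it was lost in 9 of the 15 other settings. Ndufa4, since assigned to complex IV but counted to complex I by its name, was lower and is described with the isoforms. Across the scalings the number of complex IV calls ran from 2 to 7.

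The large changes of complex IV lay in its muscle isoforms, and they went in opposite directions. Cox7a1, the heart and skeletal muscle form of subunit 7a, was measured by a probe at chr7:30970337-30970948 on mm9. It read 12.78 and 12.35 in the Pak1-/- labelled arrays, compared with 10.21 and 10.40 in the Pak1+/+ labelled arrays. Its difference of 2.26 ± 0.17, or 4.79-fold (limma adjusted p = 0.000869), was the largest of all members, and the SD between replicates was 0.30 and 0.14 in the groups. The ubiquitous form, Cox7a2, read 15.32 and 15.34 against 15.49 and 15.57, a difference of -0.20 ± 0.072 without a call (limma adjusted p = 0.0728). Cox6a2, the muscle form of subunit 6a, read 7.50 and 7.53 against 8.54 and 8.32, a difference of -0.91 ± 0.097 (limma adjusted p = 0.00215). All 4 arrays were above background for it, and its ubiquitous form Cox6a1 had no call, at 0.089 ± 0.075, a sign that turned negative when arrays were scaled to the 75th percentile (-0.15, or -0.19 from the processed signal).

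Of the other isoforms, Cox4i2 and Cox6b2 changed less. Ndufa4l2 read near the floor of the arrays, as Cox6a2 did. Cox4i2, the lung form of subunit 4, differed by -0.15 ± 0.078 and Cox6b2, the testis form of subunit 6b, by 0.12 ± 0.11, neither with a call. Cox4i1, the ubiquitous form of subunit 4, differed by 0.25 ± 0.077 (limma adjusted p = 0.0511), and by -0.049 and -0.058 under the same 2 scalings. Ndufa4l2, a paralogue of Ndufa4 known as a target of hypoxia signalling, read 7.69 and 6.74 against 8.62 and 8.30, a difference of -1.24 ± 0.34 (limma adjusted p = 0.0348). Of the arrays labelled Pak1-/- only 1 measured it above background, and the call was lost in 6 of 14 other settings. The difference was -0.77 without the second array labelled Pak1-/-, -1.72 without the first and -2.34 from the processed signal. Ndufa4 read 14.83 and 14.82 against 15.46 and 15.42, a difference of -0.62 ± 0.068 (limma adjusted p = 0.00232) that held in all 15.

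**Figure D4:**
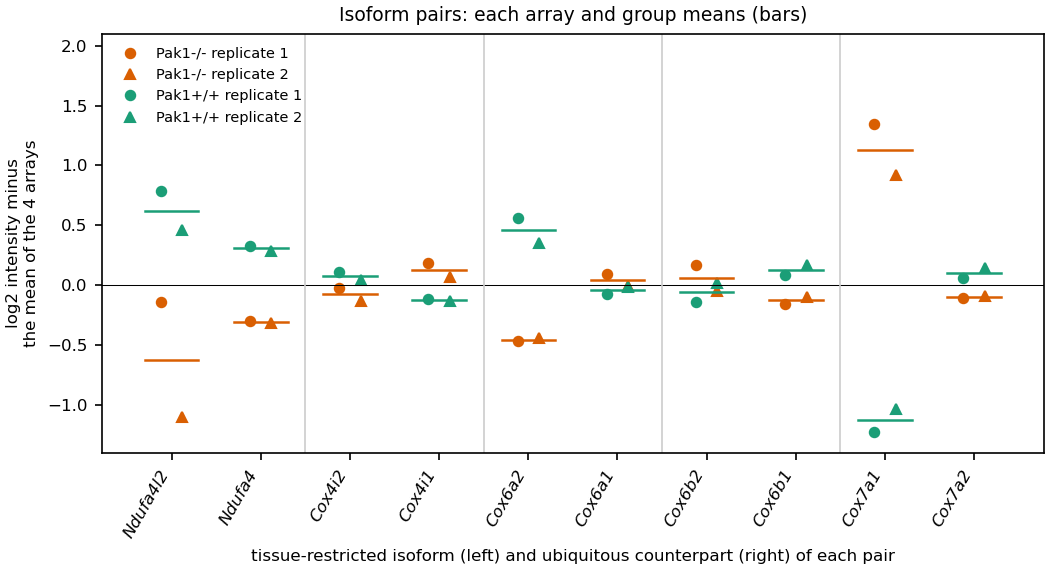
Log2 intensity of each array minus the gene's mean over the 4 arrays (y axis) for 5 tissue-restricted isoforms and their ubiquitous counterparts, with group means as bars. Cox7a1 is higher and Cox6a2 lower on both arrays labelled Pak1-/-, whereas the arrays of Cox6b2 and Cox6a1 lie near each other.

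Because Cox7a1 and Cox7a2 differ in tissue and in response, the 250 bases before each start are set side by side, on GRCm38.p6 and 5′ to 3′ on the gene's strand, with each CG pair in capitals.
Cox7a1, chr7:30183921-30184170, plus strand: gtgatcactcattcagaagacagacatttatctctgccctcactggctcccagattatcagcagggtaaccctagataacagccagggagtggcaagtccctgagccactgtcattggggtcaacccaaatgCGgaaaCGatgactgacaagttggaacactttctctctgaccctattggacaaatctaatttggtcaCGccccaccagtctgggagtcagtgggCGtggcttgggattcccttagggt
Cox7a2, chr9:79759854-79760103, minus strand: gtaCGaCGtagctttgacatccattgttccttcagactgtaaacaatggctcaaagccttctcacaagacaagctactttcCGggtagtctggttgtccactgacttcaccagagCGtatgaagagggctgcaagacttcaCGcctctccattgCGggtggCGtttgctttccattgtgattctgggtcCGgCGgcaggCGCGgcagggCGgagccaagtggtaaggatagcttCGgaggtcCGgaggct
The stretch of Cox7a1 held 4 CG pairs and that of Cox7a2 held 14, and the median over the same 250 bases was 14 in the 73 windows of members, beside 6 in all 32851 windows. None of the 4 motifs searched stood in either.

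Of 12 markers of muscle itself on the array, 4 (Actc1, Myh1, Mylpf and Myl1) were above background on no array and 6 on all 4. Of the 7 tested, 2 were higher, Acta1 (1.76) and Tnni2 (1.35), and 2 were lower, Tnnt2 (-1.69) and Atp2a1 (-0.58), where 51% of all genes were called. Summed over the list, the linear intensity came to 53608 and 68331 in the Pak1-/- labelled arrays, with 65965 and 70734 in the Pak1+/+ labelled arrays. Among markers of other cells, 2 of 8 for adipocytes (Adipoq, Lep), 4 of 8 for fibroblasts (Col3a1, Dcn, Lum, Pdgfrb), 3 of 6 for endothelium (Tek, Tie1, Emcn) and 2 of 9 for leukocytes (Lyz2, Laptm5) were above background on no array. Above background on all 4 were 2, 3, 2 and 5 of them. Of the 4 adipocyte markers tested Ucp1 was higher and Retn lower, of the 3 for fibroblasts Col1a1 was higher (9.31 and 8.88 against 8.03 and 7.93), of the 3 for endothelium none was called by limma or passed at an unadjusted p under 0.05, and of the 5 for leukocytes Emr1 (-1.05 ± 0.085) and Ptprc (-0.45 ± 0.066) were lower. The summed intensity of the leukocyte list ran from 50699 to 73143 in the Pak1-/- labelled arrays and from 41872 to 46929 in the others, most of it from Itgam, which had no call (0.49 ± 0.21). The sums of the fibroblast list were 1375 to 1564 and 1213 to 1251, those of the adipocyte list 1007 to 1270 and 996 to 1110, and those of the endothelial list 10077 to 10452 and 9137 to 10940. The part of other cells in the differences of the members was not tested.

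Complex V, the ATP synthase, joins a catalytic head in the matrix to a rotor in the membrane, with a stator that holds the head still. Of its 16 genes 3 were higher, 4 lower and 9 had no call, which is 43.75% called beside 51% of all genes, and the median difference was -0.12, or -0.35 with arrays scaled to the 75th percentile and -0.37 so from the processed signal. Across the scalings 6 to 11 were called, and 4 were without either array labelled Pak1-/- and 3 without either labelled Pak1+/+. In the head, Atp5a1, the alpha subunit, read 15.73 and 15.71 in the Pak1-/- labelled arrays, compared with 16.17 and 16.31 in the Pak1+/+ labelled arrays, a difference of -0.52 ± 0.081 (limma adjusted p = 0.00654). Atp5b, the beta subunit that makes ATP together with it, had no call at -0.090 ± 0.071. Atp5c1, the gamma subunit that forms the shaft, was higher, with 16.77 and 16.79 against 16.32 and 16.36, a difference of 0.44 ± 0.067 (limma adjusted p = 0.00618), and its second probe gave 0.27 ± 0.077. Atp5d, the delta subunit, was lower at -0.35 ± 0.091 (limma adjusted p = 0.0315). Genes of the head thus took both directions.

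In the stator and stalk, Atp5o, which ties the stator to the head, and Atp5j, coupling factor 6, were higher at 0.34 ± 0.075 and 0.28 ± 0.068, and the other 2 genes had no call. In the membrane part, all 5 genes had a negative difference, and Atp5k was lower. The c-ring genes Atp5g2 and Atp5g3, whose proteins form the rotor, differed by -0.14 ± 0.088 and -0.13 ± 0.069 without a call. Both passed as lower when arrays were scaled to the 75th percentile, at -0.45 and -0.37, or -0.48 and -0.41 from the processed signal. Atp5c1 lost its call in 2 of the 15 other settings, Atp5d and Atp5o in 4, Atp5j in 7 and Atp5k in 8, and Atp5a1 in none. These subgroups were written down after the values were seen.

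The pattern also took in 4 genes that encode no subunit. Atp5s (now Dmac2l) read 9.43 and 9.42 against 10.10 and 10.13, a difference of -0.68 ± 0.067 (limma adjusted p = 0.00174). Atp5sl (now Dmac2), Cox4nb (now Emc8) and Cox7a2l, a factor of supercomplex assembly, had no call, at 0.19 ± 0.068, -0.16 ± 0.080 and -0.013 ± 0.086. Without these 4 the counts were 13 higher and 23 lower of 76.

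Other mitochondrial genes were counted in lists beside the all-gene shares of 28.2% lower and 22.8% higher. Of 12 probes for mitochondrially encoded subunits, none was called by limma, and none passed at an unadjusted p under 0.05. Without the second array labelled Pak1-/- 3 were higher, and scaling to the 75th percentile gave 2 lower, or 1 from the processed signal. COX1, COX2, COX3 and CYTB were saturated on all 4 arrays and ND2 on 2, so for these only bounds exist. Their missing calls therefore say nothing of a change. ND4, ND4L and ND5 differed by 0.27 ± 0.10, 0.28 ± 0.11 and 0.29 ± 0.14, and ND3 by -0.27 ± 0.14. On none of these 4 was the difference more than 3 times its SE.

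A further list held 4 subunits and the ATP synthase inhibitor Atpif1, all under names outside the pattern. It gave 1 higher (Atpif1) and 1 lower (Cyc1) of 5. Uqcr10, a subunit under a clone name that this list left out, was lower as well. The 14 genes tested for the electron carriers gave 2 higher and 7 lower. Coq7 and Pdss1, enzymes of ubiquinone synthesis, fell, with differences of -0.88 ± 0.083 and -0.75 ± 0.088. Etfdh, which feeds electrons from fatty acid oxidation into ubiquinone, rose by 0.78 ± 0.072 (limma adjusted p = 0.00149), from 12.93 and 12.97 to 13.77 and 13.70. Atpif1, the inhibitor protein of ATP synthase, rose by 0.70 ± 0.077 (limma adjusted p = 0.00240).

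Assembly factors of the 5 complexes were lower in 20 and higher in 3 of 42, with a median of -0.23. Acad9, a dehydrogenase that also serves complex I assembly, was the exception in size, with 13.56 and 13.29 in the Pak1-/- labelled arrays, compared with 11.70 and 11.65 in the Pak1+/+ labelled arrays, a difference of 1.75 ± 0.11 or 3.36-fold (limma adjusted p = 0.000603). Sdhaf1, an assembly factor of complex II, and Nubpl, which delivers iron-sulphur clusters to complex I, differed by -0.99 ± 0.10 and -0.98 ± 0.087. The 3 genes show both directions within the same list.

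Of 13 citric acid cycle genes 7 were lower and none was higher by limma, also at an unadjusted p under 0.05. Suclg2, Dld and Idh3a, which act in consecutive steps or as a shared subunit of the cycle's dehydrogenases, differed by -1.15 ± 0.11, -0.85 ± 0.080 and -0.80 ± 0.068. Of 13 genes for import and the outer membrane 8 were lower and none higher by limma, also at an unadjusted p under 0.05, with Hspa9 and Hspd1, chaperones of the matrix, at -0.98 ± 0.068 and -0.69 ± 0.071, and Timm50, a receptor of the import channel, at -0.61 ± 0.079. The mitochondrial ribosome, which makes the subunits encoded in mitochondrial DNA, had 38 lower and 9 higher of 71, with Mrpl35 (-0.89), Mrpl12 (-0.86) and Mrps35 (-0.84) the largest.

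Of 18 regulators of mitochondrial biogenesis 9 were lower and none was higher by limma, also at an unadjusted p under 0.05. Ppargc1a, the coactivator PGC-1alpha, had the largest difference of any gene in these lists. It read 8.72 and 8.77 against 11.72 and 11.27, a difference of -2.75 ± 0.16 or 6.71-fold (limma adjusted p = 0.000496), and a second probe gave -1.69. Pprc1, a related coactivator, differed by -1.01 ± 0.083, and Tfam, which packs and transcribes mitochondrial DNA, by -0.82 ± 0.079. The factors whose motifs were searched above gave -0.32 ± 0.077 for Nrf1, with a call, and -0.055 ± 0.084 for Gabpa, 0.0077 ± 0.086 for Yy1 and 0.11 ± 0.067 for Esrra, without.

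Beside the same all-gene shares, complex I had 48.6% lower and 21.6% higher. Across 6 other ways of scaling or background correction the assembly factors gave 17 to 20 lower, the citric acid cycle 6 to 9, the import list 8, the regulators 7 to 9 and the ribosome 31 to 43. The ribosome list had 3 to 11 higher. Leaving out single arrays lowered several counts further, and the share of all genes called fell as well. Without the first or second array labelled Pak1+/+ the assembly factors had 12 and 13 lower and the ribosome 21 and 21, and the electron carriers had 4 lower without the first. The import list had 4 lower without the second labelled Pak1+/+ and 5 without the first labelled Pak1-/-, which also left 25 in the ribosome. The ribosome list had 3 to 5 higher without any 1 array. No test compared these lists with each other or with other genes.

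**Figure D5:**
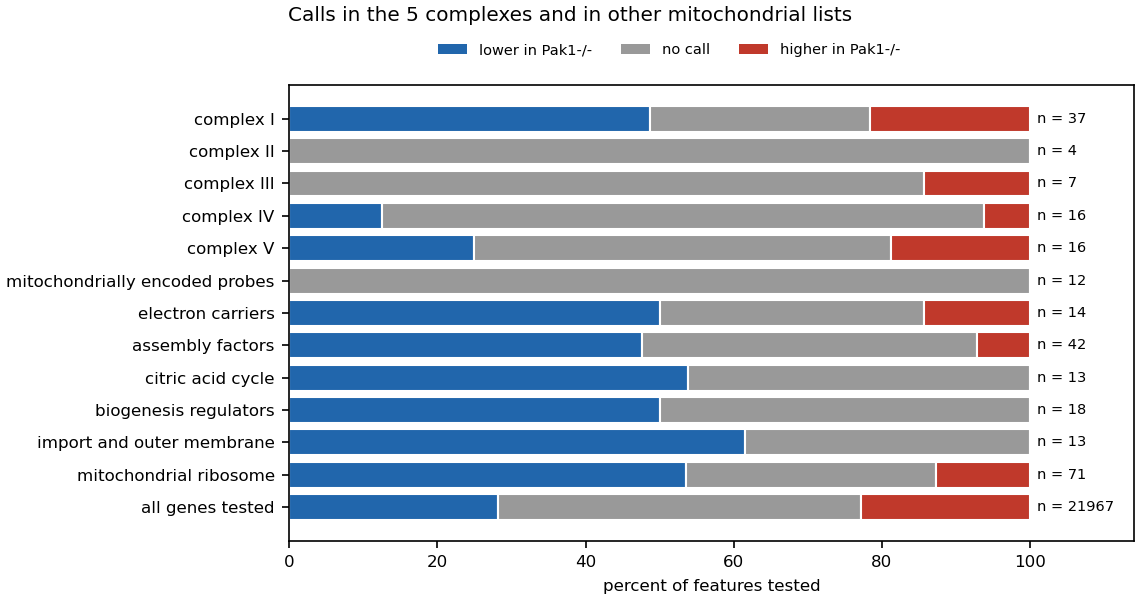
Percent of features tested that were lower, not called or higher in the arrays labelled Pak1-/- (x axis) for the 5 complexes, 7 other mitochondrial lists and all genes tested, with the number tested at the right. By the name pattern complexes II and III hold no lower call, but Cyc1 and Uqcr10 of complex III, outside the pattern, were lower. The mitochondrially encoded probes hold no call, and COX1, COX2, COX3 and CYTB among them were saturated on every array. The citric acid cycle, biogenesis and import lists hold no higher call.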

How the data were processed

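Total RNA was measured on 1-colour (Cy3) Agilent mouse arrays with 60-base probes, 2 arrays a group. The scanner output that the authors deposited gives spot intensities on a linear scale, made with Feature Extraction 9.5.3.1 and not normalized between arrays, and its header names mm9 for the probe positions. The authors also deposited log2 values of the same arrays, described as normexp corrected and quantile normalized, with values in 24008 of 39485 rows, and these served as an alternative.

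Here mean signals were corrected with normexp (limma 3.58.1, R 4.3.3, offset 50, which understates changes of dim probes), control spots were left out of the 43020 spots kept, and log2 values were quantile normalized. Outlier spots were set aside and spots averaged per probe. Probes that passed the scanner's above-background flag on 2 or more of the 4 arrays were tested with lmFit and eBayes (two-sided, genotype only, Benjamini-Hochberg over 27229 probes, threshold 0.05). The offset and filter were set here, since the methods give none. The methods name a threshold of 0.05 for p, applied here to adjusted p. The residual degrees of freedom were 2, and the number of arrays limits precision. An exact permutation test of 2 against 2 arrays cannot give a p under 0.333.

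Members, lists, markers and alternatives were chosen with earlier results of these data known. Named genes were the label checks, all of complex II, and up to 4 largest calls in each other complex. Those largest calls were taken among genes above background on all 4 arrays. Also named were calls of at least 2-fold, isoform pairs, c-ring genes, matches that encode no subunit, and up to 3 largest calls per list. Names changed since the array was designed were taken from the RefSeq table of GRCm38.p6 through accessions, which named 26055 of 32334 probes. The letters of the NRF1 and YY1 motifs were shortened after promoter matches of longer forms had been seen, which raised their counts. The fitting step was tested on simulated data. Human samples of the study were not analysed here.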

Additional observations from a re-analysis of the deposited data

How the results depend on the processing

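Counts of the members were recomputed under 19 alternatives and medians under 17. With processed signals scaled to the 75th percentile, 4 members were higher, and the medians were -0.28 over all members and -0.30, -0.27, -0.23, -0.20 and -0.37 in complexes I to V. With normexp and the same scaling, 5 were higher and 38 lower, with medians of -0.25 over all, -0.22 in complex III and -0.35 in complex V. Cyclic loess moved the medians to -0.071 over all, -0.13 in complex I and -0.085 in complex II. An adjusted p under 0.01 left 6 higher and 15 lower, with 32.4% of all genes called, and a change of at least 2-fold left 2 and 1. The mean over a gene's probes gave a complex III median of -0.16. Without 1 array in turn, 6 to 9 were higher and 14 to 21 lower, with medians from -0.14 to -0.13 over all. The other values of these 8 results lay within 1.5 times the main count or within 0.071 of the main median, the median SE of the members' differences, and every median kept its sign. In the named genes signs turned for Cox4i1 (-0.058 from processed signals and -0.049 with normexp scaled to the 75th percentile), Cox6a1 (-0.19 and -0.15 likewise), Ndufs6 (-0.012 from processed signals) and Cox7a2l (0.044 with cyclic loess, 0.019 in the deposited log2 table, and -0.077 to 0.051 without 1 array in turn). Over the 75 genes and all alternatives, 1067 values kept sign and side of the threshold, 180 lost a call and 18 gained one. The cause of these moves was not tested. The replicate numbers did not pair the arrays (correlation of replicate differences between the groups -0.028), and with the replicate number as a block 9 were higher and 19 lower. Saturation of 4 mitochondrially encoded probes on all arrays leaves only bounds there.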

Other observations

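A complex III subunit stood on the array under a clone name and so outside the name pattern. Uqcr10, listed as 1110020P15Rik and named here through its RefSeq accession after the values were seen, had 3 probes, all above background on 4 arrays and all lower in the arrays labelled Pak1-/-. The brightest read 15.64 and 15.84 against 16.08 and 16.09, a difference of -0.35 ± 0.094 (limma adjusted p = 0.0346), and the others differed by -0.45 ± 0.083 and -0.42 ± 0.084. ATP synthase subunits under older names, Usmg5 (now Atp5md) and 2010107E04Rik (now Atp5mpl), had no call, at -0.14 ± 0.084 and 0.020 ± 0.070. Atp5g1, the remaining c-ring gene, was not found under that name and was not analysed here.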
